A study of Homo sapiens with 6 samples.

Results

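ID1, ID2, ID3, ID4, SMAD6, SMAD7, SMAD9, BAMBI, SKIL and PMEPA1 are genes that BMP or TGF-beta signalling induces through SMAD proteins, and they were followed in SCC-9, an established tongue squamous carcinoma line of human origin. They are 10 of the 25349 genes in the table of read counts, and all were found by symbol. They were picked by their role and by values of the same contrast that is described here. Their differences between the groups are therefore given as a description, without p-values of single members. Counts of members past a threshold use the test of all genes and carry no evidence of their own. Cells of the siE7 group received an siRNA whose target is exon 7 of MKI67, which encodes the proliferation antigen Ki67, and cells of the siNC group with a nonspecific siRNA. In both groups 10 nM of siRNA was given by lipofection on day 0 and on day 2 in medium with serum and hydrocortisone, and poly(A) RNA from day 4 was sequenced, with 3 libraries per group. Of 3 exon 7 siRNAs in the study, the sources used here do not say which went into these libraries. Nothing in the sources used here says that the libraries of a group came from separate experiments, and p-values measure only the spread between libraries, which may be technical.

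Bone morphogenetic proteins (BMPs) bind type I and type II receptors, which phosphorylate SMAD1, SMAD5 and SMAD9, and these enter the nucleus together with SMAD4. TGF-beta and activins use related receptors and act through SMAD2 and SMAD3. The ID genes are the classic direct targets of the BMP branch. ID proteins have a helix-loop-helix but no DNA-binding region, and they hold back basic helix-loop-helix factors that drive differentiation, in keratinocytes as in other cells. SMAD6 and SMAD7 are the inhibitory SMADs, which are induced by the pathway and block it at the receptors. BAMBI is a receptor-like protein without a kinase, SKIL is a SMAD corepressor, and PMEPA1 is a membrane protein that sequesters SMAD2 and SMAD3.

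The promoters of 3 members are shown, SMAD6 and ID4 because they had the largest fold differences and ID1 because it was the most abundant per exon length. Each sequence holds the 250 bases before the annotated start (RefSeq, GRCh38.p14, plus strand), at chr15:66701986-66702235 for SMAD6, chr6:19837120-19837369 for ID4 and chr20:31605039-31605288 for ID1. Capitals mark the letters of 3 motifs linked to SMAD binding, searched on both strands: the palindrome GTCTAGAC, the GC-rich element GGAGCC, and the SMAD box CAGAC.
SMAD6: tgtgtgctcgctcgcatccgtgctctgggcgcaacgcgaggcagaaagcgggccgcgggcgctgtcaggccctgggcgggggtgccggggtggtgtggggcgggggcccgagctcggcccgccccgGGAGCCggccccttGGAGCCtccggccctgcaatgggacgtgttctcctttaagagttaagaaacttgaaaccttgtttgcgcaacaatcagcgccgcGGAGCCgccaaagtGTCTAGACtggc
ID4: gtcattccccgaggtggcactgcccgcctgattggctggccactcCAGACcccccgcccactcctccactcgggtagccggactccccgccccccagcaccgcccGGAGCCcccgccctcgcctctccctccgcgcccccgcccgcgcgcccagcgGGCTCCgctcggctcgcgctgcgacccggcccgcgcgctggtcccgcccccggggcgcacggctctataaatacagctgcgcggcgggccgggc
ID1: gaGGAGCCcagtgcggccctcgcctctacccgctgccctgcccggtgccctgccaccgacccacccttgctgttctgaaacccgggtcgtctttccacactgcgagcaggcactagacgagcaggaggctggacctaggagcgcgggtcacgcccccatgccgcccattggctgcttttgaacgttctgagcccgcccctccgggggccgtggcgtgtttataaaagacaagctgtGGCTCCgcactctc
The palindrome lay 12 bases before the start of SMAD6 and in none of the other 14 windows of the 10 genes. Of all 35116 promoter windows of this length, 0.182% held it, and of those of tested genes 0.124%. The GC-rich element was found at 3 places in the SMAD6 window and at 2 places each in those of ID4 and ID1. It was in 30.6% of all windows and in 38.2% of those of tested genes. Members that differed little or were not tested also had it, at 4 places for BAMBI and 3 each for SMAD9 and SKIL. A window of PMEPA1 had 2, and a window each of ID3 and SMAD7 had 1. The SMAD box occurred once in the ID4 window, in 38.0% of all windows and in 36.5% of those of tested genes. It also lay in windows of ID3, SMAD7, BAMBI, SKIL and PMEPA1. The window of ID2 held none of these motifs. Another motif, GGCGCC, was present in 16.4% of all windows and 24.5% of those of tested genes. Among the 10 genes it lay only in windows of BAMBI, SKIL and PMEPA1. These matches are letters in a window and were not tested for binding.

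The libraries held 25608192 to 29550264 counts on genes, and 14661 genes passed the filter on low counts. MKI67 was lower in siE7, at 114.7 ± 8.70 CPM (gene counts scaled to a common library size by TMM factors; mean ± SD, n = 3) against 1059 ± 26.7 in siNC, a log2 fold change of -3.21 (SE 0.11, adjusted p = 6.71e-08 by edgeR's quasi-likelihood test), and gene counts do not separate the isoforms with and without exon 7. Within siE7, replicate 1 stood apart from replicates 2 and 3 on the second principal component (17.8% of the variance). Values without it are given for the tested members. They are also given for named pathway genes whose call changed without it or whose value moved by over 1.5 times. Pathway genes that are not named also changed call without it, and only total numbers are given for these. All 8 squamous markers were tested and summed to 23250 to 24770 CPM in siNC and 21320 to 27810 CPM in siE7, with single markers lower (KRT5 at 2408 and 1584 CPM, CDH1 at 171.1 and 83.6) or higher in siE7 (KRT14 at 9487 and 11770 CPM, KRT17 at 1727 and 2799). The 7 fibroblast markers, 2 of them tested, summed to 16.5 to 19.7 CPM and 18.3 to 24.2 CPM, the 5 endothelial markers reached at most 0.568 CPM, and of the leukocyte markers PTPRC, CD3E, LYZ and CD68, CD68 alone had any count. The part of these markers in the results was not tested. In bulk RNA, a change in the share of cells that express a gene and a change in the RNA per cell cannot be told apart.

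All 4 ID genes were higher in siE7, with no overlap between the groups, as were 24.9% of all tested genes. ID1 (ENSG00000125968.9, chr20:31605283-31606515, plus strand, GRCh38) had levels of 47.4, 51.7 and 49.8 CPM in siNC replicates 1 to 3 and of 109, 94.1 and 97.1 CPM in siE7. Its log2 fold change was 1.01 (SE 0.11), a 2.02-fold difference, and was 0.88 without siE7 replicate 1, its highest library. ID3 (ENSG00000117318.9, chr1:23557926-23559501, minus strand) measured 21.3, 25.2 and 24.9 CPM in siNC. It reached 66.3, 49.7 and 47.3 CPM in siE7, a log2 fold change of 1.19 (SE 0.15) that was 0.96 without replicate 1. The differences of ID1 and ID3 thus lay near the fold of 2 that serves as threshold, and both were past it only with that library in the fit. ID1 was also below it under DESeq2 (0.96), RLE scaling (0.96), no filter on low counts (0.995) and without siNC replicate 1 (0.97).

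ID2 and ID4 were scarce in siNC and had larger fold differences. ID2 (ENSG00000115738.10, chr2:8678845-8684461, plus strand) had 15, 22 and 22 counts in siNC, or 0.608, 0.881 and 0.833 CPM. In siE7 it had 139, 159 and 129 counts, or 4.69, 5.76 and 4.22 CPM, and the log2 fold change was 2.65 (SE 0.26). Every siE7 library was thus several times above the highest siNC library. ID4 (ENSG00000172201.12, chr6:19837370-19842197, plus strand) had 22, 41 and 19 counts in siNC and 288, 234 and 282 in siE7. Its levels were 0.891, 1.64 and 0.720 CPM against 9.72, 8.48 and 9.22 CPM, with a log2 fold change of 3.08 (SE 0.28). Replicate 2 of siNC was the highest of the control libraries for ID4, and the log2 fold change was 3.49 without it. ID2 overlaps the antisense gene ID2-AS1 over 145 exon bases, and that gene had 34 counts in all 6 libraries. Leaving out siE7 replicate 1 gave 2.62 for ID2 and 2.97 for ID4 on the log2 scale.

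**Figure D1:**
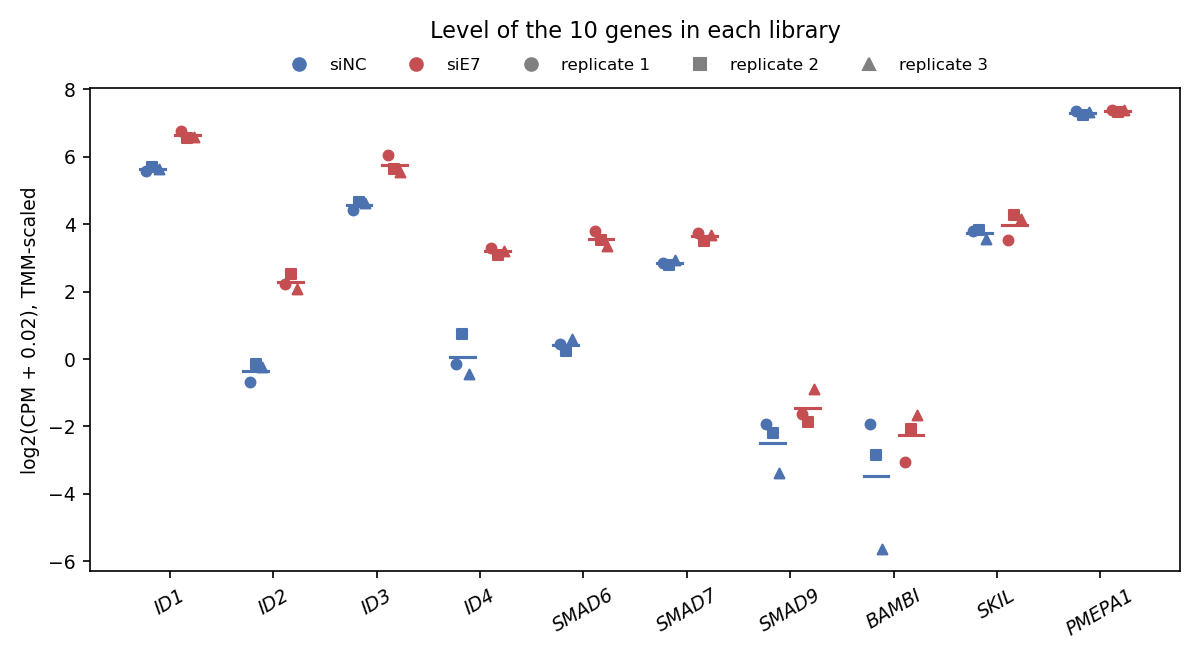
Level of the 10 genes in each library, as log2(CPM + 0.02) on the vertical axis, with siNC in blue, siE7 in red, a symbol per replicate and a line at each group mean. The siE7 points of ID1 to ID4, SMAD6, SMAD7 and SMAD9 lie above all siNC points, while those of SKIL, PMEPA1 and BAMBI mix with them.

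Levels of different genes can be compared only per exon length, here that of all annotated exons of a gene merged. This length can exceed that of the transcripts expressed here, so shares and orders between genes are approximate. On that scale (CPM per kb of exon), the 4 ID genes summed to 53.2, 59.6 and 57.6 in siNC and to 137, 114 and 115 in siE7, a 2.15-fold difference of the means. ID1 made up 70.9 ± 1.20% of this sum in siNC and 66.6 ± 2.17% in siE7 (mean ± SD, n = 3 each), and ID3 28.0 ± 1.11% and 29.6 ± 2.40%. The share of ID2 went from 0.612 ± 0.0838% to 1.83 ± 0.393% and that of ID4 from 0.489 ± 0.200% to 1.94 ± 0.127%. The genes with the largest fold differences thus contributed least to the sum, which was nearly all ID1 and ID3 in both groups.

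**Figure D2:**
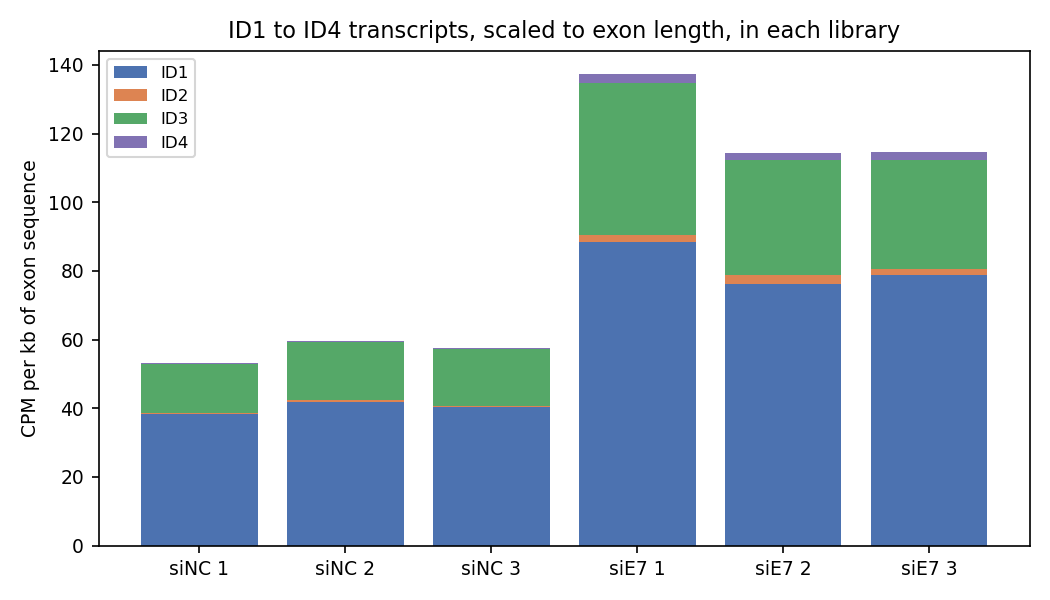
Summed level of ID1 to ID4 in each library, in CPM per kb of exon, stacked by gene. The siNC bars reach 53.2 to 59.6 and the siE7 bars 114 to 137, and ID1 and ID3 fill nearly all of each bar.

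Of the inhibitory SMADs, SMAD6 had the largest fold difference of the tested members. SMAD6 (ENSG00000137834.15, chr15:66702236-66782849, plus strand), which acts mainly on the BMP branch, had 33, 29 and 39 counts in siNC and 415, 321 and 309 in siE7. These are 1.34, 1.16 and 1.48 CPM against 14.0, 11.6 and 10.1 CPM, an 8.95-fold difference with a log2 fold change of 3.16 (SE 0.21), or 2.97 without siE7 replicate 1. Its promoter is the one above with the palindrome GTCTAGAC, and whether that match has any part in the difference was not tested. SMAD7 (ENSG00000101665.10, chr18:48919853-48950965, minus strand), which blocks both branches, was at 7.13, 6.93 and 7.69 CPM in siNC. It was at 13.2, 11.3 and 12.9 CPM in siE7, above siNC in every library, and the log2 fold change of 0.78 (SE 0.16) was under 1, and was 0.68 without siE7 replicate 1. SMAD7 was the nearest member below the fold threshold, and ID1 the nearest above it.

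SKIL and PMEPA1, which respond to TGF-beta as well, differed little. SKIL (ENSG00000136603.14, chr3:170357342-170396835, plus strand) had 14.0, 14.1 and 11.9 CPM in siNC and 11.6, 19.3 and 17.9 CPM in siE7. Replicate 1 of siE7 lay below every siNC library and the other two above them, so the groups overlapped, and the log2 fold change was 0.28 (SE 0.20). It was 0.42 without that replicate. PMEPA1 (ENSG00000124225.16, chr20:57648392-57711536, minus strand) had 164.4, 150.0 and 161.6 CPM in siNC and 167.2, 160.7 and 166.7 CPM in siE7. The groups overlapped and the log2 fold change was 0.06 (SE 0.10), with a sign that turned under DESeq2 (-0.0014) and without siE7 replicate 1 (-0.02). PMEPA1 shares 343 exon bases with NKILA on the opposite strand, which had 954 counts in all.

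SMAD9 and BAMBI did not pass the filter on low counts, and no fold change is given for them. SMAD9 (ENSG00000120693.14, chr13:36844831-36920887, minus strand), the third SMAD of the BMP branch and itself a BMP target, had 6, 5 and 2 counts in siNC and 9, 7 and 16 in siE7. Every siE7 library was above every siNC library for SMAD9, also in CPM (0.0757 to 0.243 against 0.254 to 0.523), but at counts this low a difference of this size is not resolved. BAMBI (ENSG00000095739.11, chr10:28677510-28682932, plus strand) had 6, 3 and 0 counts in siNC and 3, 6 and 9 in siE7, and the groups overlapped. A BAMBI difference was not detectable at this depth.

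Across the 10 genes, 8 were tested and 5 of them (ID1, ID2, ID3, ID4 and SMAD6) were past the threshold for a differentially expressed gene (adjusted p under 0.05 and log2 fold change beyond 1) on the higher side, where 7.38% of all tested genes were. With SMAD7, 6 were higher at an adjusted p under 0.05 alone, against 18.0% of tested genes, and 0 were lower, against 16.0%. In 7 of the 10, SMAD9 included, every siE7 library was above every siNC library, as in 24.9% of tested genes. Their log2 fold changes had a median of 1.10 over the 8 tested members and of 0.08 over all tested genes. The genes were chosen on this contrast, so these counts carry no evidence of their own.

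**Figure D3:**
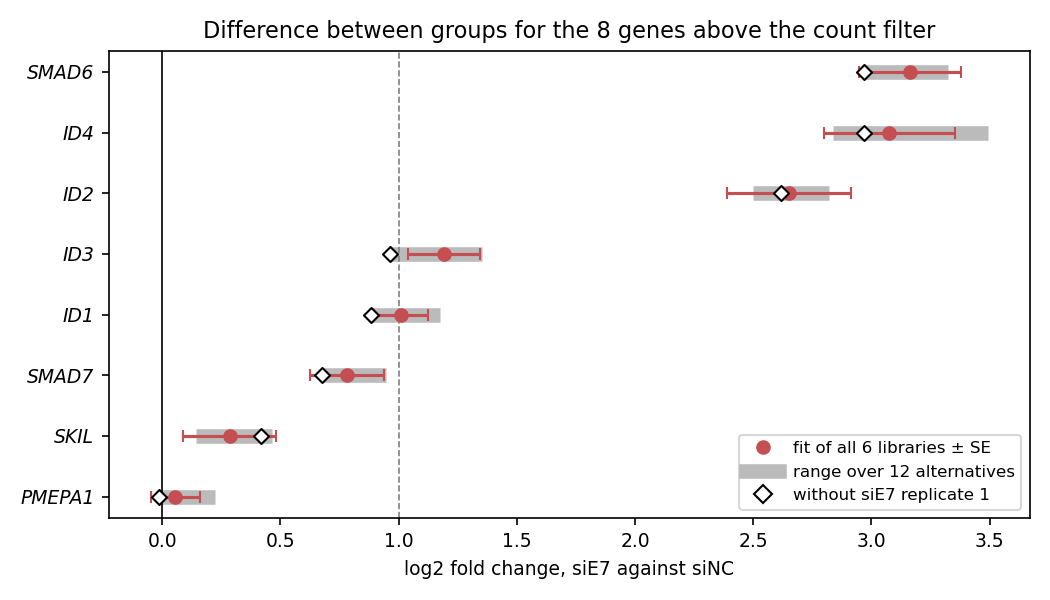
Log2 fold change of siE7 against siNC for the 8 tested genes, with error bars of 1 SE, a grey band for the range over 12 alternative settings, a diamond for the value without siE7 replicate 1 and a dashed line at 1. SMAD6, ID4 and ID2 lie between 2.65 and 3.16, ID3 and ID1 near 1, SMAD7 at 0.78, and SKIL and PMEPA1 closer to 0.

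Per exon length, the order of the levels in siNC was ID1 (40.3 CPM per kb), PMEPA1 (27.7), ID3 (15.9), SMAD7 (1.84), SKIL (1.64), ID2 (0.35), ID4 (0.28), SMAD6 (0.155), BAMBI (0.0566) and SMAD9 (0.029). Neighbours in this order did not overlap between libraries, except ID2 with ID4 and BAMBI with SMAD9. In siE7 the order was ID1 (81.1 CPM per kb), ID3 (36.4), PMEPA1 (28.8), SMAD7 (3.16), ID4 (2.36), ID2 (2.21), SKIL (2.00), SMAD6 (1.39), BAMBI (0.0955) and SMAD9 (0.0605). Neighbours from ID4 to SMAD6 overlapped, as did BAMBI and SMAD9. ID3 thus stood above PMEPA1 in siE7 and below it in siNC.

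The rest of the pathway was taken from lists of 136 genes by role, of which 90 were tested. At an adjusted p under 0.05 (edgeR's quasi-likelihood test, adjusted over all tested genes), 10 rose, 28 fell and 52 did not pass, and the median log2 fold change was -0.03. The shares of 11.1% higher and 31.1% lower stand beside 18.0% and 16.0% of all tested genes, the background for each list that follows. Without siE7 replicate 1, 19 of 91 rose and 42 fell (20.9% and 46.2%), while the shares over all genes were also larger, at 28.9% and 29.5%. The counts for each list that follow are from the fit with all libraries. They were not repeated list by list without that replicate, so many of these calls depend on it.

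Of 14 BMP and GDF ligands 2 were tested, and BMP2 rose. BMP2, a ligand of the BMP receptors, had 4.21, 4.04 and 4.51 CPM in siNC and 8.13, 14.1 and 10.7 CPM in siE7, a log2 fold change of 1.37 (SE 0.22, adjusted p = 0.00074). All siE7 libraries were above siNC, with replicate 1 the lowest. BMP4, named after its values had been seen, had 1.54, 1.36 and 1.97 CPM in siNC and 1.32, 0.942 and 0.556 CPM in siE7 and did not pass (log2 fold change -0.79, adjusted p = 0.11), whereas it fell without siE7 replicate 1 (-1.18, adjusted p = 0.0078). Of 14 TGF-beta, activin and related ligands, 7 were tested, 0 rose and 4 fell, beside the same 18.0% and 16.0%. INHBB and INHBA, the subunits of activin B and activin A, fell with log2 fold changes of -1.90 (adjusted p = 6.3e-06) and -1.31 (adjusted p = 0.00024). INHBB went from 51.3, 54.2 and 57.5 CPM to 16.7, 12.1 and 14.8 CPM. The others were TGFB2 (-0.96, adjusted p = 0.0018) and GDF11 (-0.81, adjusted p = 0.0011), of which GDF11 shares exon bases with SARNP on the other strand.

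Of 18 secreted antagonists and modulators, which bind the ligands outside the cell, 9 were tested, 7 fell and 0 rose, beside 16.0% lower and 18.0% higher among all tested genes. FST, follistatin, which binds activins and some BMPs, had 22.4, 20.9 and 22.6 CPM in siNC and 5.60, 6.41 and 6.31 CPM in siE7, a log2 fold change of -1.85 (adjusted p = 8.3e-06). BMPER, a BMP-binding protein, had 3.97, 3.44 and 4.36 CPM in siNC and 1.38, 1.23 and 0.850 CPM in siE7 (-1.76, adjusted p = 0.00045). Both were lower in every siE7 library. NOG, noggin, a BMP antagonist named after its values had been seen, had 3.44, 2.80 and 3.30 CPM in siNC and 1.11, 1.59 and 0.458 CPM in siE7, and its log2 fold change was -1.60 (SE 0.37, adjusted p = 0.0061). CRIM1 (-0.80, adjusted p = 0.00051) and NBL1 (-0.74, adjusted p = 0.0051) fell by less, and NBL1 shares 131 exon bases with MICOS10 on the same strand.

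Of 12 type I and type II receptors 8 were tested, 2 fell and 0 rose, a count of falls near the 16.0% of all tested genes. TGFBR2, the type II receptor of TGF-beta, had 63.6, 60.0 and 61.8 CPM in siNC and 25.4, 29.2 and 27.9 CPM in siE7 (log2 fold change -1.17, adjusted p = 3.3e-05). BMPR2, the type II receptor of BMPs, fell by 0.72 on the log2 scale (adjusted p = 0.0045). The type I receptors BMPR1A (0.51, adjusted p = 0.13) and TGFBR1 (0.37, adjusted p = 0.21) did not pass, but did without siE7 replicate 1 (0.69, adjusted p = 0.00011, and 0.52, adjusted p = 0.00036). Of 6 co-receptors 2 were tested, and ENG, endoglin, fell from 3.48 ± 0.896 to 1.31 ± 0.0893 CPM (log2 fold change -1.41, adjusted p = 0.0023).

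The SMADs that carry the signal were measured with little difference for the BMP branch. SMAD1 had 3.24, 2.96 and 3.83 CPM in siNC and 3.58, 4.24 and 5.07 CPM in siE7, and its log2 fold change of 0.36 did not pass (adjusted p = 0.22). SMAD5 (0.41, adjusted p = 0.20), SMAD4 (0.43, adjusted p = 0.14) and SMAD2 (0.18, adjusted p = 0.32) did not pass either. Without siE7 replicate 1 these 3 passed on the higher side, at 0.60, 0.57 and 0.20 (adjusted p = 7.7e-05, 0.00014 and 0.033), and SMAD1 did not (adjusted p = 0.074). SMAD4 shares 967 exon bases with another counted gene on the same strand. SMAD3 fell from 68.4 to 46.1 CPM (log2 fold change -0.57, adjusted p = 0.005), in the other direction from the rest. These are RNA levels, and phosphorylated SMAD proteins were not measured here.

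Among 17 intracellular negative regulators 16 were tested, 2 rose and 4 fell, near the shares of all tested genes (18.0% and 16.0%). SKI, a corepressor related to SKIL, fell from 85.2 to 41.4 CPM (log2 fold change -1.04, adjusted p = 0.00015), whereas SKIL was at 0.28. SMURF2, a ubiquitin ligase for SMADs and receptors, fell by 0.99 on the log2 scale (adjusted p = 0.0014), FKBP1A, which holds type I receptors inactive, by 1.02 (adjusted p = 6e-05) and TRIM33 by 0.56 (adjusted p = 0.036), a call that was lost with no composition scaling (adjusted p = 0.16) or without any of the siNC libraries (adjusted p = 0.096 to 0.1). PEG10 (0.87, adjusted p = 0.00036) and TOB2 (0.52, adjusted p = 0.0052) rose. FKBP1A, SMURF2 and PEG10 share exon bases with other expressed genes. Of 7 class I and related bHLH proteins, the partners that ID proteins bind, 5 were tested and 0 passed, with log2 fold changes from -0.26 to 0.31.

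Of 18 other genes known to respond to BMP 13 were tested, 3 rose and 1, BMPER, fell, near the 18.0% and 16.0% of all tested genes. ATOH8, a bHLH factor, had 0 counts in all siNC libraries and 18, 17 and 16 in siE7. It was at least 14.7-fold higher, taking 3 counts over the siNC group as the floor. ATOH8 passed the filter on low counts only through its siE7 libraries. Its place among the 3 that rose therefore carries no evidence of its own, and no p-value is given for it. GATA2 rose from 17.6, 19.0 and 15.6 CPM to 36.9, 27.6 and 27.3 CPM (log2 fold change 0.82, adjusted p = 0.0025), and it shares 78 exon bases with GATA2-AS1. JUNB rose by 0.50 on the log2 scale (adjusted p = 0.011), a call that was lost when any of the siNC libraries was left out (0.47 to 0.50, adjusted p = 0.051 to 0.065). Without siE7 replicate 1 JUNB was at 0.30 (adjusted p = 1.5e-05). JUNB shares 259 exon bases with HOOK2, an expressed gene on the other strand. The other 9 tested genes did not pass.

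Of 26 genes known to respond to TGF-beta or activin 24 were tested, 4 rose and 9 fell, beside 18.0% and 16.0% of all tested genes. THBS1, thrombospondin 1, fell from 1436 to 311.0 CPM (log2 fold change -2.21, adjusted p = 6.6e-07). LTBP2 (-2.37, adjusted p = 9.4e-07), MMP9 (-3.21, adjusted p = 8.3e-06) and FN1, fibronectin (-1.25, adjusted p = 4.9e-05), fell as well. SNAI2, a repressor of epithelial genes, rose from 127, 114 and 125 CPM to 265, 337 and 318 CPM (log2 fold change 1.33, adjusted p = 1.9e-05). BHLHE40 rose by 0.51 (adjusted p = 0.0059), and LTBP1 (1.40, adjusted p = 0.02) and IGFBP3 (0.42, adjusted p = 0.024) rose with calls that several other settings lost.

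**Figure D4:**
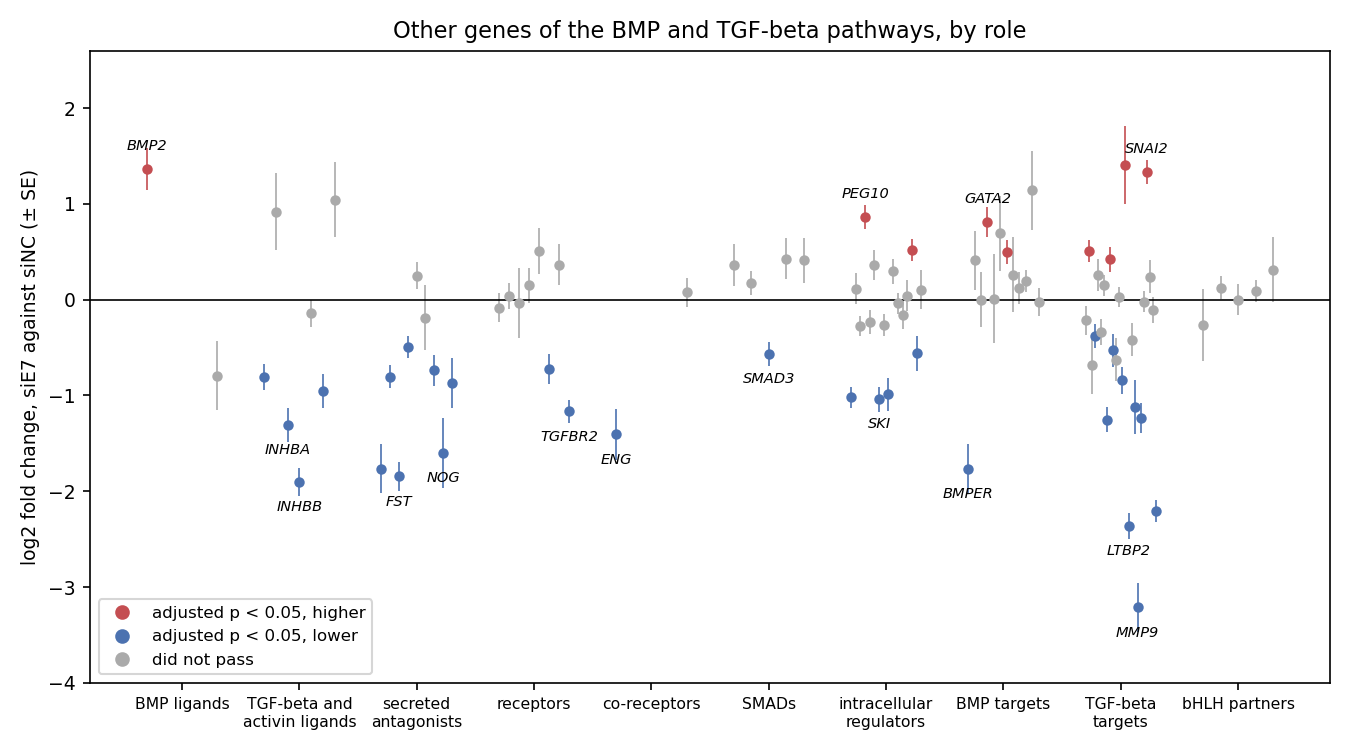
Log2 fold change of siE7 against siNC for the tested genes of each list by role, with error bars of 1 SE, red and blue points for an adjusted p under 0.05 (higher and lower), grey points for the rest, and ATOH8 left out because its siNC counts are 0. The 7 antagonists that passed lie below 0, BMP2 lies above 0, and the genes known to respond to TGF-beta spread to both sides.

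The genes with the pattern most like a member were taken by the smallest root mean square difference of log2 levels, relative to the siNC mean, over the 6 libraries. For ID1 they were C1R (0.0584), SYBU (0.0589) and DOT1L (0.0593), and for SMAD6 AKR1C2 (0.276), SAMD11 (0.300) and APOA4 (0.317). For PMEPA1, which was nearly flat, ANKLE2 (0.0258), CLTA (0.0263) and ZC3HAV1 (0.0317) came closest. Pearson's correlation as the measure shared 0 of these 9 genes, so the nearest genes depended on the measure of likeness.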

How the data were processed

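The authors deposited whole-number counts of reads per gene for 6 libraries (directional poly(A) libraries, paired-end Illumina reads), without normalization. Their processing notes name HISAT2, DESeq2 and GRCh38. The counting tool, its annotation and its use of strand are not given in the sources used here, so overlapping genes on opposite strands may share reads. Counts were filtered with filterByExpr, scaled by TMM and tested with the quasi-likelihood test of edgeR 4.0.16 (R 4.3.3) with Benjamini-Hochberg adjustment over all 14661 tested genes. SE is of the log2 fold change. Simulated counts with 200 changed genes were used to test the fit, which recovered 200 of them and called 1 unchanged gene among 14685 tested. The changed genes lay well above the count filter, differed by more than the threshold, and shared the same spread beyond counting noise with all others. Recovery of differences near or below the threshold, such as those of ID1, ID3, SMAD7 and JUNB, was not tested. Nor was recovery of genes as scarce as ATOH8 and LTBP1. Recovery with a library that stands apart from its group, as siE7 replicate 1 does, was not tested either. The members, lists and alternatives were chosen with earlier results of these data known. Named pathway genes are up to 4 per list and direction with the smallest p-values past the threshold, plus genes said to be named after their values had been seen. Receptors and SMADs that did not pass were named as well, for their role. Positions and exon lengths come from GENCODE v44 on GRCh38 (25283 of 25349 identifiers matched, 20655 with their version), and promoters from RefSeq for all 10 members. Alternatives were DESeq2 1.42.0, RLE and no composition scaling, other count filters, a replicate block and each library left out.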

Additional observations from a re-analysis of the deposited data

How the results depend on the processing

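The number of the 10 genes past the threshold was 5 in the reported fit and 3 to 5 when 1 library was left out, with 3 without siE7 replicate 1, where ID1 and ID3 had log2 fold changes of 0.88 and 0.96. It was 4 under DESeq2, under RLE scaling, with no filter on low counts and without siNC replicate 1. The other 7 tested members were above 0 in all 12 settings, and PMEPA1 lay between -0.02 and 0.22. The count of other pathway genes that rose went from 10 to 18 with no composition scaling and ranged from 7 to 19 over the libraries left out, and the count that fell ranged from 23 to 42 around 28. No composition scaling moved the median log2 fold change of all genes by 0.168, and the share of higher genes among those past the threshold was 60.4% as reported, 52% under DESeq2 and 76.2% with no composition scaling. Of the pairs of 37 named pathway genes and 12 settings that gave a value, 418 kept the reported call and direction, 25 gained or lost the call and 0 changed sign. ATOH8, which was counted apart from these, and LTBP1 could not be fitted with at least 10 counts in every library. The same replicate numbers in both groups did not pair the samples (correlations of deviations of -0.0393, -0.0205 and -0.0521). With a replicate block, 1819 genes were past the threshold against 1792, and 5 of the 10 genes. IGFBP3 lost its call under the replicate block (adjusted p = 0.056). At this depth SMAD9 and BAMBI, with at most 16 counts per library, could not be compared.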
